A study of Mus musculus with 23 samples.

Results

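The genes described here are 10 regulators of mitochondrial biogenesis, chosen by symbol: the PGC1 coactivators Ppargc1a, Ppargc1b and Pprc1, the nuclear receptors Esrra, Esrrg, Ppara and Pparg, and the transcription factors Nrf1, Gabpa and Tfam. They are 10 of 35455 genes in the expression table of BRAF and BRAF/PI3K tumor cells and 10 of 35454 genes in the table of tumor cells with 1 or both copies of Ppargc1a inactivated. The study picked Ppargc1a for follow-up from the first of these tables, so its difference between BRAF and BRAF/PI3K libraries is not independent evidence.

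PGC1α, the product of Ppargc1a, binds no DNA itself. It docks on nuclear receptors and other factors and draws histone acetyltransferases and the Mediator complex to their target promoters. With the estrogen-related receptors and the respiratory factors NRF1 and GABP it raises the transcription of nuclear genes for the respiratory chain and of Tfam, whose product packages and transcribes mitochondrial DNA. With PPARα it acts on fatty acid oxidation and with PPARγ on lipid handling, and type 2 alveolar (AT2) pneumocytes, the surfactant-making cells of the lung, depend on both oxidative metabolism and lipid synthesis.

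All 23 libraries came from adult mice of mixed C57BL/6, 129 and FVB background carrying the Braf CAT allele (CAT/+), which expresses BRAF V600E together with tdTomato after CRE recombination. Recombination was started with an adenovirus in which the Sftpc promoter drives CRE, and this restricts it to cells that express surfactant protein C. The BRAF group (CAT/+) held 1, 3 and 2 libraries at 2, 6 and 12 weeks after induction, and the BRAF/PI3K group (CAT/+; HR/+, which adds PIK3CA H1047R) held 2, 4 and 2. By the sex labels, 5 BRAF libraries were female and 1 male, against 3 female and 5 male in BRAF/PI3K. At 2 weeks the BRAF library was female and both BRAF/PI3K libraries were male, so sex and genotype cannot be told apart within that week. Both 12-week BRAF libraries were female. A separate cohort at 12 weeks compared 5 Het libraries (CAT/+; PGC1a mutant/+) with 4 Null libraries (CAT/+; PGC1a mutant/mutant), in which a floxed Ppargc1a allele recombines in the same cells. Every library was tdTomato-positive cells sorted from dissociated lung. The 12-week mice, Het and Null included, received less virus than the 2- and 6-week mice, so 12 weeks and the lower virus dose cannot be told apart. In such bulk samples, fewer cells of a type and less RNA per cell cannot be told apart either.

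The deposited values were normalized counts, and library totals ranged from 16433800 to 20287300 in the BRAF and BRAF/PI3K table and from 7115750 to 9159570 in the Het and Null table. The tables were normalized separately, so levels were compared within each. Depth in reads is unknown. The AT2 marker Sftpc was detected in all 23 libraries, at 21173 to 392700. Both 2-week BRAF/PI3K libraries stood apart, with the lowest Sftpc values (38864 and 21173) and with AT2 marker sums of 195324 and 95295, against 868501 in the 2-week BRAF library. Marker lists of other lung cells moved with the groups: endothelial marker sums were 1081 to 1476 in Het and 2635 to 3080 in Null, club cell marker sums were 2844 to 4615 and 6668 to 25262, both without overlap, and all 11 fibroblast and smooth muscle markers tested were higher in Null (median 1.08). The part of these cells in the differences between Null and Het was not tested beyond the endothelial and macrophage covariates given below. In the other table macrophage marker sums were 1869 to 9354 in BRAF and 3379 to 35941 in BRAF/PI3K. There, all 18 endothelial markers were higher in BRAF/PI3K (median 0.88) and all 6 erythroid markers tested were lower (median -0.93). The Y-linked gene Kdm5d went against the sex labels of both 12-week BRAF/PI3K libraries: it stood at 502 in the replicate labelled male and at 4728 in the one labelled female, against 234 to 508 and 2090 to 4677 in the other female and male libraries of that table. Ddx3y, Uty and Eif2s3y, also Y-linked, did the same. They stood at 55.4, 408 and 30.2 in the replicate labelled male, against 1420, 1580 and 1309 in the one labelled female. The members' pooled differences are given with and without these 2 libraries, and values with sex as a factor use the labels as given.

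Ppargc1a lies on chr5:51454250-51567726, minus strand, in GRCm38. Its upstream sequence is shown because Ppargc1a is the member with the largest difference in the pooled and the Null against Het comparisons and because CREB, which binds cAMP response elements, is a textbook activator of it. The sequence runs from -250 to -2 of the RefSeq start (GRCm38.p6, chr5:51567727-51567975, minus strand), and its capitals mark TGACG, the first bases of a cAMP response element, read here on the opposite strand at -49 to -45.

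Ppargc1a upstream sequence: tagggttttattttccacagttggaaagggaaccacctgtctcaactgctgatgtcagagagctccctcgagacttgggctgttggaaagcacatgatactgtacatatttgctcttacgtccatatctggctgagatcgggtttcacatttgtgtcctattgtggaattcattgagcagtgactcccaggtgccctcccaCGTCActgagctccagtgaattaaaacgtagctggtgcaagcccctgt

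The motif TGACG occurred on either strand in 17.8% of 32851 RefSeq promoter windows of 250 bases and, among the members with a window, in Ppargc1a and Ppara. The full element TGACGTCA, found in 1.55% of the windows, was not found in that of Ppargc1a or of any other member. GABP, the factor of which Gabpa encodes the DNA-binding subunit, recognizes CCGGAAG, found in 6.91% of the windows. Of the 9 members with a window (all but Ppargc1b), Tfam and Gabpa itself carried it, at -47 to -41 and, on the opposite strand, at -93 to -87. Both stretches are shown in 30 bases with the motif in capitals, from chr10:71238073-71238102 on the minus strand and chr16:84835020-84835049 on the plus strand (GRCm38.p6). Their positions count from RefSeq starts. GENCODE starts Tfam at 71238280 and Gabpa at 84834925, so both stretches lie inside the genes as GENCODE draws them.
Tfam: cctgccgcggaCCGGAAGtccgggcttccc
Gabpa: gagggtaagtgCTTCCGGgtccctcagcta

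Ppargc1a mRNA was lower in BRAF/PI3K than in BRAF tumor cells. In BRAF libraries its normalized count was 772 at 2 weeks, 1088, 650 and 1017 at 6 weeks, and 408 and 350 at 12 weeks. In BRAF/PI3K libraries it was 177 and 51.9 at 2 weeks, 117, 282, 268 and 301 at 6 weeks, and 75.5 and 415 at 12 weeks. All 8 BRAF/PI3K libraries lay below the BRAF mean and 7 of 8 lay below every BRAF library. The exception was the second 12-week replicate, which exceeded both 12-week BRAF libraries. On the log2(normalized count + 1) scale used throughout, the difference was -1.92 (SE 0.45, 95% interval -2.89 to -0.96), 3.79-fold lower, with an exact two-sided permutation p of 0.00266 over 3003 assignments of the labels. Among the 17558 genes tested with limma its p-value ranked 50, with a Benjamini-Hochberg adjusted p = 0.225, so Ppargc1a did not pass the threshold of 0.05 on the adjusted p. In that comparison 0.0228% of all genes passed it and 0 of the 10 members did.

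The difference was of similar size with the 12-week BRAF/PI3K libraries left out, at -1.94 (limma adjusted p = 0.210). The mean log2 level of the macrophage or of the endothelial markers gave -1.76 when entered as a covariate, in either case, and sex as a factor, which takes the labels that Kdm5d goes against in 2 libraries, gave -1.79. AT2 markers moved with Ppargc1a: 20 of 21 were lower in BRAF/PI3K (median -1.01), 6 of them (against 3.38% of all genes in that direction) at an unadjusted limma p under 0.05 and 0 after adjustment, and their summed counts were 631070 to 1674640 in BRAF and 95295 to 1240250 in BRAF/PI3K. Their part in the Ppargc1a difference was not tested.

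**Figure D1:**
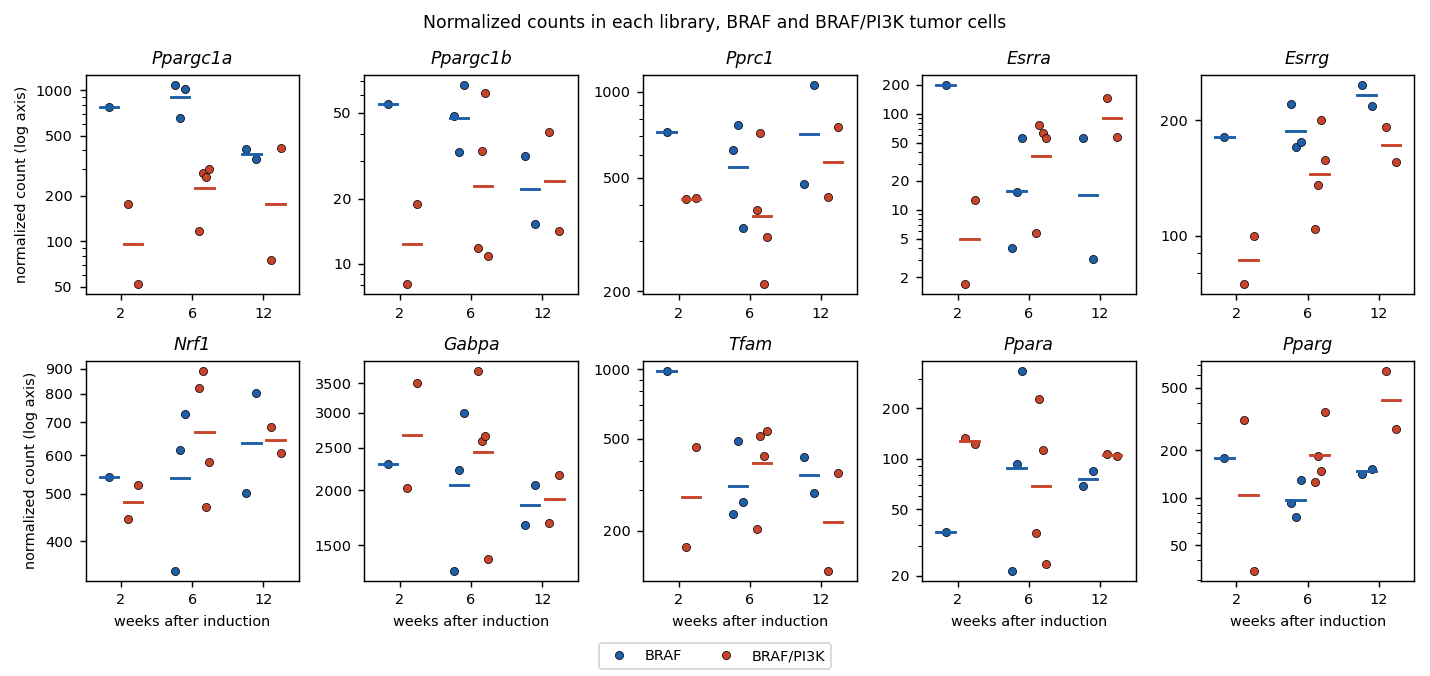
Normalized counts of the 10 genes (log axis, one panel per gene with its own range) against weeks after induction; each point is 1 library, BRAF in blue and BRAF/PI3K in red, and horizontal bars are group means of log2(normalized count + 1) turned back to counts. Ppargc1a in the 4 BRAF/PI3K libraries at 6 weeks lies at 117 to 301, below the 3 BRAF libraries at 650 to 1088, while Nrf1 and Gabpa overlap at every week with more than 1 library per group.

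By week, both BRAF/PI3K libraries at 2 weeks lay below the single BRAF library in Ppargc1a. At 6 weeks, which held the most libraries, all 4 BRAF/PI3K libraries lay below all 3 BRAF libraries. The Ppargc1a difference there was -1.98 (SE 0.58, 95% interval -3.25 to -0.71, limma adjusted p = 0.921), and the exact permutation p was 0.0286, the smallest that 35 assignments allow. Of all genes tested at 6 weeks, 2.6% had every BRAF/PI3K library below every BRAF library, and Ppargc1a was the single member that did. None of the members passed the adjusted threshold at 6 weeks, against 0.0228% of all genes.

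At 2 weeks Ppargc1a differed by -3.00 (SE 0.94, 95% interval -5.03 to -0.96, limma adjusted p = 0.198). That value rests on 1 BRAF library, which was female, while both BRAF/PI3K libraries were male. AT2 markers were lower at that week (18 of 21, median -2.29) and endothelial markers higher (18 of 18, median 2.76), and their part in the 2-week differences of Ppargc1a and the other members was not tested. Without the first or the second 2-week BRAF/PI3K replicate it was -3.87 or -2.12. At 12 weeks it was -1.09 (95% interval -2.75 to 0.58) and depended on which BRAF/PI3K library was kept, at 0.13 without the first and -2.31 without the second. The share of genes past the adjusted threshold was 0.0171% at 2 weeks and 0.0114% at 12 weeks, with 0 members in either.

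Ppargc1a was higher at 6 than at 2 weeks by 0.72 averaged over both genotypes (95% interval -0.48 to 1.93, limma adjusted p = 0.722) and lower at 12 than at 6 weeks by a log2 difference of -0.80 (95% interval -1.85 to 0.25, limma adjusted p = 0.841). Neither difference exceeded the spread between libraries. The former was 1.16 without the first 2-week BRAF/PI3K replicate and 0.29 without the second. All 21 AT2 markers were higher at 6 than at 2 weeks (median 1.26), and their part was not tested. Without the first 12-week BRAF/PI3K replicate the 12 against 6 week difference was -0.19, and without the second -1.41. In that comparison 16 of 19 macrophage markers (median 1.37) and 17 of 21 AT2 markers (median 0.58) were higher at 12 weeks. Of 18 endothelial markers 15 were lower (median -0.89), and the part of these markers was not tested. The genotype effect at 12 weeks minus that at 6 weeks was 0.89 (95% interval -1.20 to 2.98). This value was 2.11 without the first 12-week BRAF/PI3K replicate, where the 12-week effect was 0.13, and -0.33 without the second. A change of the effect over time was therefore not detectable with these numbers. No member passed the adjusted threshold in the 6 against 2 week, the 12 against 6 week or the interaction test, where 0.0399%, 0.0114% and 0% of all genes did. For the interaction, 504 genes (2.87%) had an unadjusted limma p under 0.05.

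The other 2 coactivators of the family showed smaller differences in the same direction. Ppargc1b encodes PGC1β, the nearest relative of PGC1α, and had the lowest length-scaled level of the 10 genes in both genotypes. Its normalized counts in BRAF were 54.9 at 2 weeks, 48.3, 32.7 and 67.4 at 6 weeks, and 31.6 and 15.3 at 12 weeks. In BRAF/PI3K they were 8.01 and 18.8, then 11.8, 33.3, 61.5 and 10.9, then 40.5 and 14.2. The groups overlapped, with 4 of 8 BRAF/PI3K libraries below every BRAF library. The pooled Ppargc1b difference was -0.89 (95% interval -1.92 to 0.15), with a limma adjusted p = 0.742 and an exact permutation p of 0.0916.

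Pprc1 encodes PRC, the PGC1-related coactivator that responds to serum and acts with NRF1. Its counts were 726 at 2 weeks, 627, 765 and 333 at 6 weeks, and 473 and 1061 at 12 weeks in BRAF. In BRAF/PI3K they were 420 and 424, then 385, 715, 211 and 310, then 429 and 752. The groups overlapped, and the pooled difference was -0.56 (95% interval -1.20 to 0.09, limma adjusted p = 0.742, exact permutation p = 0.110). With sex as a factor, from the same labels, it was -0.16. With endothelial marker levels as a covariate it was -0.35, and with macrophage marker levels -0.59. Without both 12-week BRAF/PI3K libraries Ppargc1b differed by -0.98 and Pprc1 by -0.70.

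**Figure D2:**
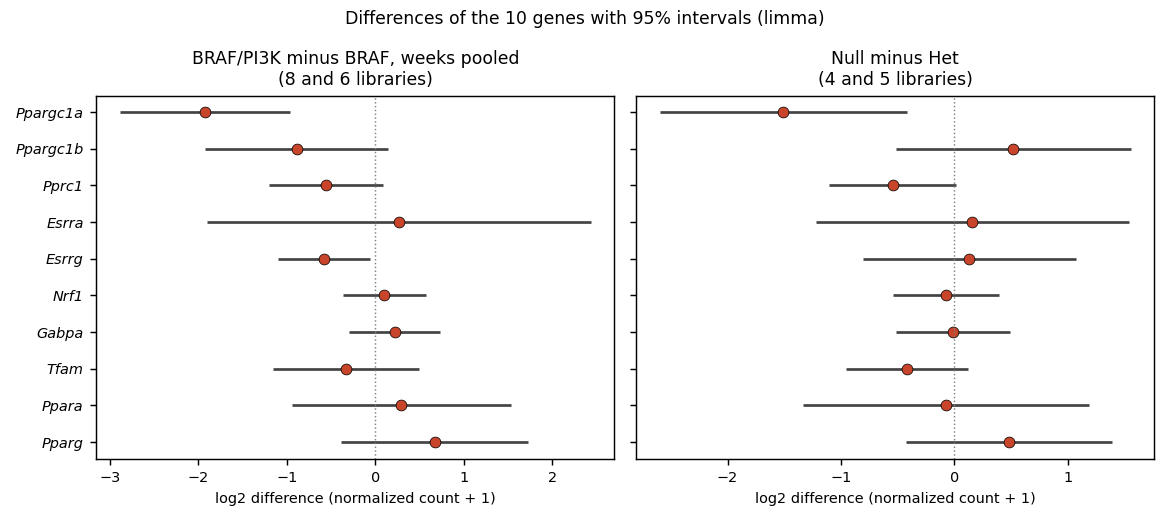
Log2 differences of normalized count + 1 (points) with 95% intervals from limma (bars) for the 10 genes, BRAF/PI3K minus BRAF over all weeks on the left (8 and 6 libraries) and Null minus Het on the right (4 and 5 libraries). Ppargc1a is the farthest below 0 in both panels, at -1.92 and -1.51, and Esrrg on the left is the other gene whose interval leaves out 0.

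Among the receptors that PGC1α coactivates, Esrrg, encoding ERRγ, stood lower in BRAF/PI3K. Its counts were 181 at 2 weeks, 221, 170 and 176 at 6 weeks, and 248 and 218 at 12 weeks in BRAF. In BRAF/PI3K they were 74.7 and 99.98, then 104, 135, 200.4 and 158, then 192 and 156. The lowest Esrrg values were those of the 2-week BRAF/PI3K libraries, and 6 of 8 BRAF/PI3K libraries lay below every BRAF library. The pooled difference was -0.58 (SE 0.24, 95% interval -1.10 to -0.07), with an exact permutation p of 0.0186 and a limma adjusted p = 0.677. With endothelial marker levels as a covariate it was -0.36, and without both 12-week BRAF/PI3K libraries -0.71. Ppargc1a and Esrrg were the 2 of 10 members with an unadjusted p under 0.05 in the lower direction, against 3.38% of all genes.

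Esrra, encoding ERRα, was low and varied more than any other member. Its counts in BRAF were 201 at 2 weeks, 3.98, 15.5 and 55.5 at 6 weeks, and 55.6 and 3.09 at 12 weeks. In BRAF/PI3K they were 1.68 and 12.5, then 5.72, 75.5, 63.5 and 55.3, then 146 and 56.7. At 2 weeks the lone BRAF library stood above both BRAF/PI3K libraries, and at 12 weeks both BRAF/PI3K libraries stood above both BRAF libraries. The pooled difference was 0.27, with a 95% interval from -1.90 to 2.43 that spans large differences in either direction (limma adjusted p = 0.969, exact permutation p = 0.817). Without both 12-week BRAF/PI3K libraries it was -0.28. At 2 weeks it was -5.07 (95% interval -9.15 to -0.99, limma adjusted p = 0.265), and -3.90 without the first BRAF/PI3K replicate of that week.

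Pparg encodes PPARγ, a lipid-sensing receptor. Its counts in BRAF were 177 at 2 weeks, 93.0, 75.9 and 129 at 6 weeks, and 142 and 153 at 12 weeks. In BRAF/PI3K they were 311 and 34.4, then 125, 183, 147 and 352, then 639 and 271. Of the 8 BRAF/PI3K libraries, 5 lay above every BRAF library and the second 2-week replicate lay below all of them. The pooled Pparg difference was 0.67 (95% interval -0.39 to 1.73, limma adjusted p = 0.805, exact permutation p = 0.250). It was 1.03 without that replicate, 0.31 without both 12-week BRAF/PI3K libraries and 0.43 without the first of them alone. With macrophage marker levels as a covariate it was 0.15, and with endothelial marker levels 1.07. Macrophages express Pparg themselves, and 16 of the 19 macrophage markers tested were higher in BRAF/PI3K, with a median log2 difference of 0.90. Their part in the Pparg values was not tested beyond that covariate.

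Neither of the respiratory factor genes Nrf1 and Gabpa showed a pooled difference beyond the spread. Nrf1, encoding nuclear respiratory factor 1, ranged from 348 to 804 (median 577) in BRAF and from 445 to 891 (median 593) in BRAF/PI3K, a log2 difference of 0.10 (95% interval -0.37 to 0.57). Gabpa ranged from 1312 to 2991 (median 2141) and from 1395 to 3739 (median 2377), a difference of 0.22 (95% interval -0.29 to 0.73). For both genes the groups overlapped almost completely, and the intervals leave out differences as large as that of Ppargc1a. Without both 12-week BRAF/PI3K libraries Nrf1 differed by 0.075 and Gabpa by 0.32.

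Tfam was 982 in the 2-week BRAF library, against 237 to 488 in the other 5, and ranged from 134 to 541 (median 389) in BRAF/PI3K. That single library was the highest of all 14, and it carried the 2-week Tfam difference of -1.81 (95% interval -3.52 to -0.10, limma adjusted p = 0.345), which was -1.10 without the first 2-week BRAF/PI3K replicate. The pooled difference was -0.33 (95% interval -1.15 to 0.49), and -0.066 without that library. Ppara, encoding the fatty acid receptor PPARα, ranged from 21.5 to 334 (median 76.4) in BRAF and from 23.6 to 228 (median 109) in BRAF/PI3K, a difference of 0.30 (95% interval -0.94 to 1.54). Without both 12-week BRAF/PI3K libraries Tfam differed by -0.16 and Ppara by 0.22.

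In the Het and Null cohort, Ppargc1a is the inactivated gene and was read first. Its counts were 75.8, 170, 155, 199.5 and 561 in Het and 72.7, 38.0, 51.6 and 124 in Null. All 4 Null libraries lay below the Het mean, and 3 of 4 lay below every Het library. The groups overlapped because the fourth Null replicate exceeded the first Het replicate, and the fifth Het replicate stood apart at the top. The difference was -1.51 (SE 0.50, 95% interval -2.60 to -0.42), 2.84-fold lower, with an exact permutation p of 0.0397 over 126 assignments. Its limma p-value ranked 187 of 17424 genes tested (adjusted p = 0.978). Without the fifth Het replicate the difference was -1.11. The gene-level value counts the whole transcript, so it does not separate a transcript that lacks the floxed exons from an intact one, and remaining counts in Null cannot be assigned to either. With endothelial marker levels as a covariate, which separate the groups fully, the difference was -3.06, and with macrophage marker levels it was -1.88.

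None of the 10 members passed the adjusted threshold in limma between Null and Het, and 0% of all genes did. At an unadjusted p under 0.05 there were 667 genes (3.83%), of which Ppargc1a was the single member.

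**Figure D3:**
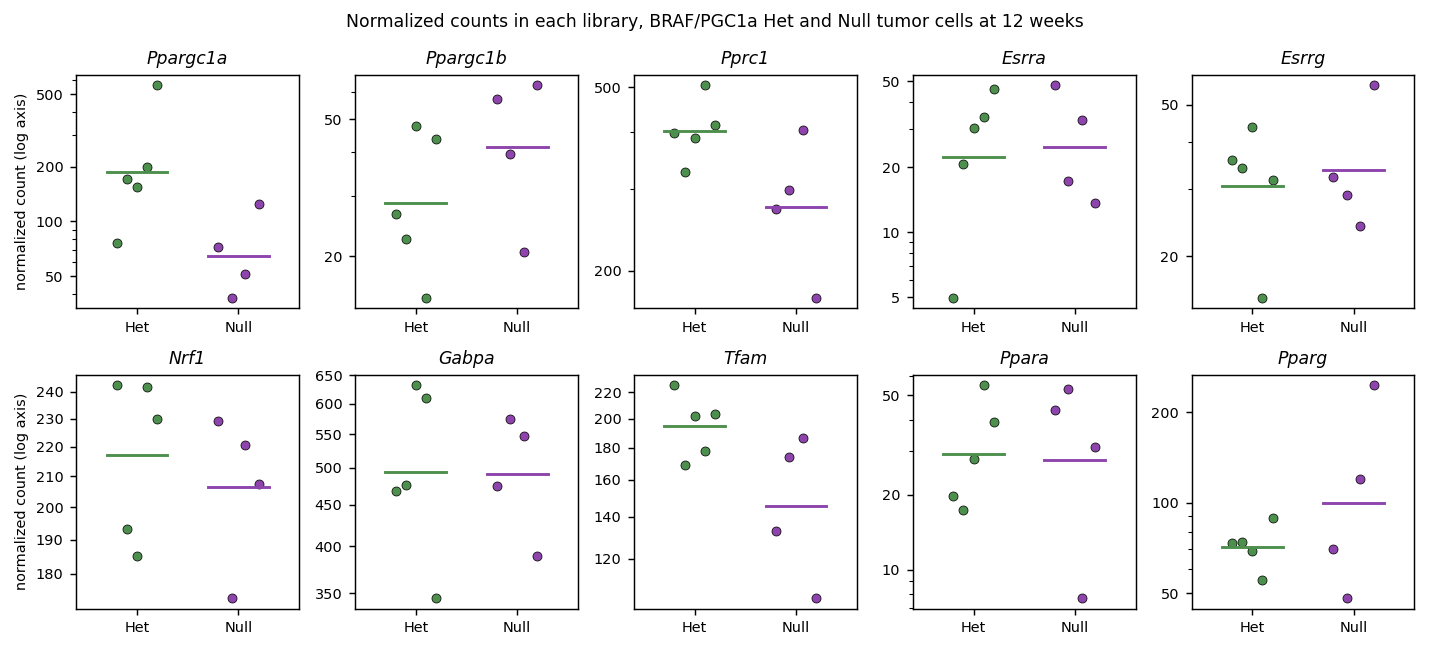
Normalized counts of the 10 genes (log axis, one panel per gene with its own range) in 5 Het libraries (green) and 4 Null libraries (purple) at 12 weeks; each point is 1 library and horizontal bars are group means of log2(normalized count + 1) turned back to counts. Ppargc1a in Null lies at 38.0 to 124 against 75.8 to 561 in Het, and Ppargc1b spans 20.6 to 62.7 against 15.2 to 47.6.

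The comparison of Null with Het also asks whether the paralogs of Ppargc1a stood higher where it was inactivated. Ppargc1b counts were 26.5, 22.4, 47.6, 15.2 and 43.8 in Het and 57.1, 39.7, 20.6 and 62.7 in Null. Null replicates 1 and 4 were above every Het library, replicate 3 was below 4 of 5 Het libraries, and the groups overlapped. The difference was 0.52 (95% interval -0.51 to 1.56), with a limma adjusted p = 0.998 and an exact permutation p of 0.278. It was 0.30 without Het replicate 4, 0.33 without Null replicate 4 and 0.85 without Null replicate 3. With endothelial marker levels as a covariate it was 0.08, and with macrophage marker levels 0.76. A higher Ppargc1b in Null was therefore not detectable, and the 95% interval runs from 0.701-fold to 2.94-fold.

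Pprc1 stood on the other side. Its counts were 398, 327, 387, 505 and 414 in Het and 272, 299, 404 and 175 in Null. Null replicates 1, 2 and 4 lay below every Het library, and replicate 3 lay among them. The difference was -0.55 (95% interval -1.10 to 0.01), with a limma adjusted p = 0.998 and an exact permutation p of 0.0635. Without Null replicate 3 it was -0.73, and without Null replicate 4 it was -0.33. The upper end of the 95% interval is a 1.01-fold higher Pprc1 in Null.

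Scaled to the length of the longest coding transcript, which allows levels to be set side by side between genes, the 3 coactivators summed to 122 ± 34.6 normalized counts per kb in Het (SD, n = 5) and 78.2 ± 9.11 in Null (SD, n = 4). The sum ranged from 94.8 to 178 in Het and from 69.6 to 90.7 in Null, without overlap. In Null, Ppargc1a stood at 11.1 ± 5.84 counts per kb, Ppargc1b at 12.3 ± 5.19 and Pprc1 at 54.8 ± 18.0. In Het the same genes stood at 35.9 ± 29.3, 8.51 ± 3.83 and 77.4 ± 12.2. On average, Ppargc1b was 3.81 counts per kb higher in Null and Ppargc1a 24.9 lower, and Pprc1, the most abundant of the 3 in both groups, was 22.6 lower. The Ppargc1a value rested on Het replicate 5, at 86.8 counts per kb, without which it was 12.2 lower and the sum ranged from 94.8 to 131 in Het. Ppargc1a made up 12.4% to 48.8% of the sum in Het (median 23.5%) and 7.97% to 27.6% in Null (median 11.5%). The sum includes Ppargc1a itself, so it is given as a description without a test.

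**Figure D4:**
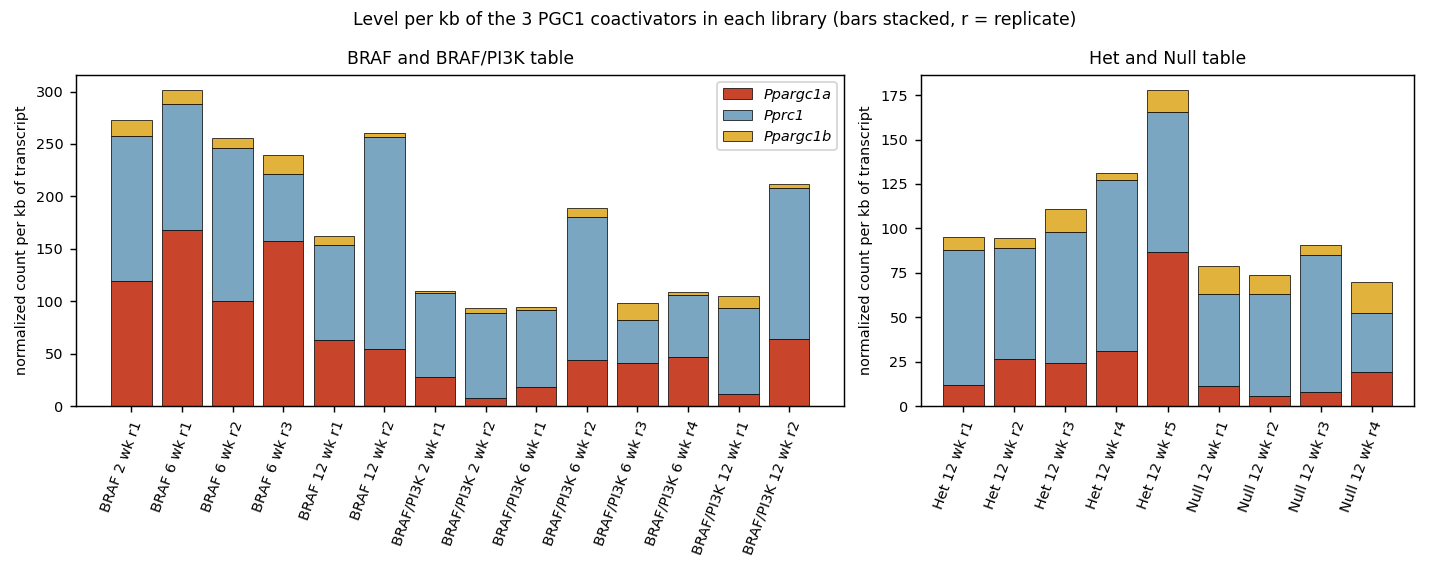
Normalized counts per kb of the 3 PGC1 coactivators, stacked for each library, with the BRAF and BRAF/PI3K table and the Het and Null table in separate panels because they were normalized separately. The 4 Null libraries reach 69.6 to 90.7 in all, below the 94.8 to 178 of the 5 Het libraries, and Pprc1 is the largest segment in every Null library.

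In the other table the sum ranged from 162 to 301 counts per kb in BRAF (median 258) and from 93.9 to 211 in BRAF/PI3K (median 107), with overlap. Ppargc1a made up 20.8% to 65.8% of it in BRAF (median 41.6%) and 8.55% to 42.9% in BRAF/PI3K (median 24.02%). In order of mean counts per kb over the 10 genes, Gabpa was first at 419 in BRAF and 496 in BRAF/PI3K, and Nrf1 was second at 164 and 175. Ppargc1a was at 110 in BRAF, next to Pprc1 at 127 and Tfam at 107, which do not differ beyond their spread, and at 32.6 in BRAF/PI3K, next to Ppara at 31.7. Ppargc1b was last, at 11.4 and 6.80.

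The receptors and downstream factors gave no difference between Null and Het beyond the spread. Tfam counts were 226, 169, 202, 178 and 203 in Het and 133, 174, 186 and 104 in Null. All 4 Null libraries lay below the Het mean and 2 lay below every Het library. The difference was -0.42 (95% interval -0.96 to 0.12), with a limma adjusted p = 0.998 and an exact permutation p of 0.0556, where 126 assignments could have given 0.00794. Without Null replicate 4 it was -0.26, and with endothelial marker levels as a covariate -0.70.

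Pparg counts were 73.7, 74.2, 69.1, 55.2 and 88.8 in Het and 70.4, 48.1, 120 and 246 in Null. Null replicates 3 and 4 lay above every Het library and replicate 2 below all of them. The Pparg difference was 0.48 (95% interval -0.43 to 1.39, exact permutation p = 0.381), and it rested on Null replicate 4, without which it was 0.054. It was 0.83 without Null replicate 2 and -0.52 with endothelial marker levels as a covariate.

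Esrra, Esrrg, Nrf1, Gabpa and Ppara lay within 0.16 of 0 in log2 difference, but not with marker covariates. With endothelial marker levels Gabpa differed by 0.92, Ppara by 0.36 and Nrf1 by -0.40, and with macrophage marker levels Esrra differed by -0.49 and Esrrg by 0.49. Esrra ranged from 4.97 to 45.7 in Het and from 13.7 to 47.8 in Null (difference 0.16, 95% interval -1.22 to 1.54). Esrrg ranged from 15.6 to 43.7 and from 24.1 to 56.2 (0.13, 95% interval -0.81 to 1.08). Ppara ranged from 17.3 to 54.9 and from 7.67 to 53.0 (-0.07, 95% interval -1.34 to 1.19). The intervals of these 3 genes were wide. Nrf1 ranged from 185 to 242 in Het and from 173 to 229 in Null, a difference of -0.07 (95% interval -0.54 to 0.40). Gabpa ranged from 345 to 632 and from 389 to 574, a difference of -0.01 (95% interval -0.51 to 0.49).

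The genes whose log2 values followed Ppargc1a most closely over the 14 BRAF and BRAF/PI3K libraries were Scara3 and Rps2-ps10 (Pearson r 0.90 each), Klhdc7a (0.89), E330017A01Rik (0.88) and Klhl13 (0.87). Over the 9 Het and Null libraries they were Rnf125 (0.96) and Npr2, Reep4, Tex15 and Yes1 (0.88 each). No gene was on both lists. Among the members, Esrrg (0.55) and Ppargc1b (0.46) followed it best over the 14 libraries, and Esrra (0.36) over the 9, while Gabpa gave -0.34 and -0.47. These values describe likeness over libraries that share genotype and purity differences, and the 5 highest of each table were taken from all genes tested.

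The wider pathway was read from lists of PGC1 partners, regulators and targets. No gene of any list passed the adjusted threshold in limma in either comparison below. Of 26 other partner factors tested, 12 were higher and 14 lower in BRAF/PI3K (median -0.08, against 0.02 over all genes), and 2 were lower at an unadjusted p under 0.05, against 3.38% of all genes. These were Sox9, a distal lung progenitor factor (-2.03, SE 0.48, adjusted p = 0.225), and Rarb, a retinoic acid receptor (-1.92, SE 0.77, adjusted p = 0.672). Nkx2-1, the lung lineage factor, differed by -0.22 (SE 0.24, adjusted p = 0.875) and Nr5a2, a nuclear receptor, by 0.81 (SE 0.93, adjusted p = 0.876). Between Null and Het they differed by -0.32 (SE 0.20) and 0.07 (SE 0.86), with an adjusted p = 0.998 for each. Nr5a2 was low throughout, at 2.02 to 184 in the BRAF and BRAF/PI3K table and 2.92 to 31.7 in the other, and its highest values were those of the 12-week BRAF/PI3K libraries, without which the first difference was -0.068.

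No respiratory chain gene passed the adjusted threshold between BRAF and BRAF/PI3K. Of 74 nuclear-encoded subunits, 28 were higher and 46 lower in BRAF/PI3K (median -0.11). That median ran from -0.15 to -0.041 with single libraries left out and from -0.14 to -0.020 under the other settings. Of these subunits, 5 (6.76%, against 3.38% of all genes) were lower at an unadjusted p under 0.05, among them Uqcrc2 of complex III (-0.57, SE 0.20, limma adjusted p = 0.565) and Atp5g2 of ATP synthase (-0.77, SE 0.30, limma adjusted p = 0.657). All 13 mRNAs encoded by the mitochondrial genome were lower (median -0.46), 2 of them at an unadjusted p under 0.05, mt-Nd3 (-0.62, SE 0.27) and mt-Cytb (-0.48, SE 0.23). These 13 come from shared precursor transcripts, so they do not count as separate observations. By week their median was -1.67 at 2 weeks, where all 13 were lower against the single BRAF library, -0.16 at 6 weeks and -0.056 at 12 weeks. Without that BRAF library the pooled median was -0.23, and with endothelial marker levels as a covariate it was -0.11.

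The machinery that copies and transcribes mitochondrial DNA was split, with 9 of 19 genes higher and 10 lower (median -0.04). The sign of that median was not stable. It ran from -0.11 to 0.17 with single libraries left out and from -0.068 to 0.16 under the other settings. Polrmt, the mitochondrial RNA polymerase, was higher by 1.37 (SE 0.45, limma adjusted p = 0.511), and Rnaseh1, which removes RNA primers, by 0.66 (SE 0.32, limma adjusted p = 0.730). Of 30 regulators and cofactors of PGC1α, 17 were higher and 13 lower (median 0.02), with Akt1, the kinase below PI3K, at 0.49 (SE 0.18, limma adjusted p = 0.623) and Crtc1, a CREB coactivator, at -0.70 (SE 0.30, limma adjusted p = 0.684). Under the other settings the median ran from -0.084 to 0.10, Akt1 from 0.30 to 0.54 and Crtc1 from -0.85 to -0.295.

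Fatty acid oxidation genes were evenly placed, 13 higher and 16 lower of 29 (median 0.00), with Acaa1a at 0.44 (SE 0.19, limma adjusted p = 0.697) and Acadm at 0.47 (SE 0.24, limma adjusted p = 0.732). Of 20 PPARγ targets 15 were higher (median 0.31). That median was 0.128 over the targets with a mean count of at least 40, 0.198 with sex as a factor or without the first 6-week BRAF/PI3K replicate, 0.20 without the second 12-week BRAF replicate and 0.47 without the second 6-week BRAF/PI3K replicate. Angptl4, an inhibitor of lipoprotein lipase, stood at 1.04 (SE 0.41, limma adjusted p = 0.653) and Fabp5, a fatty acid binding protein, at -0.95 (SE 0.33, limma adjusted p = 0.531). Of 17 genes of mitochondrial dynamics and antioxidant defence 7 were higher and 10 lower (median -0.12), with Idh2 at -0.68 (SE 0.30, limma adjusted p = 0.709) and Sirt5 at -0.34 (SE 0.15, limma adjusted p = 0.718), both mitochondrial matrix enzymes.

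**Figure D5:**
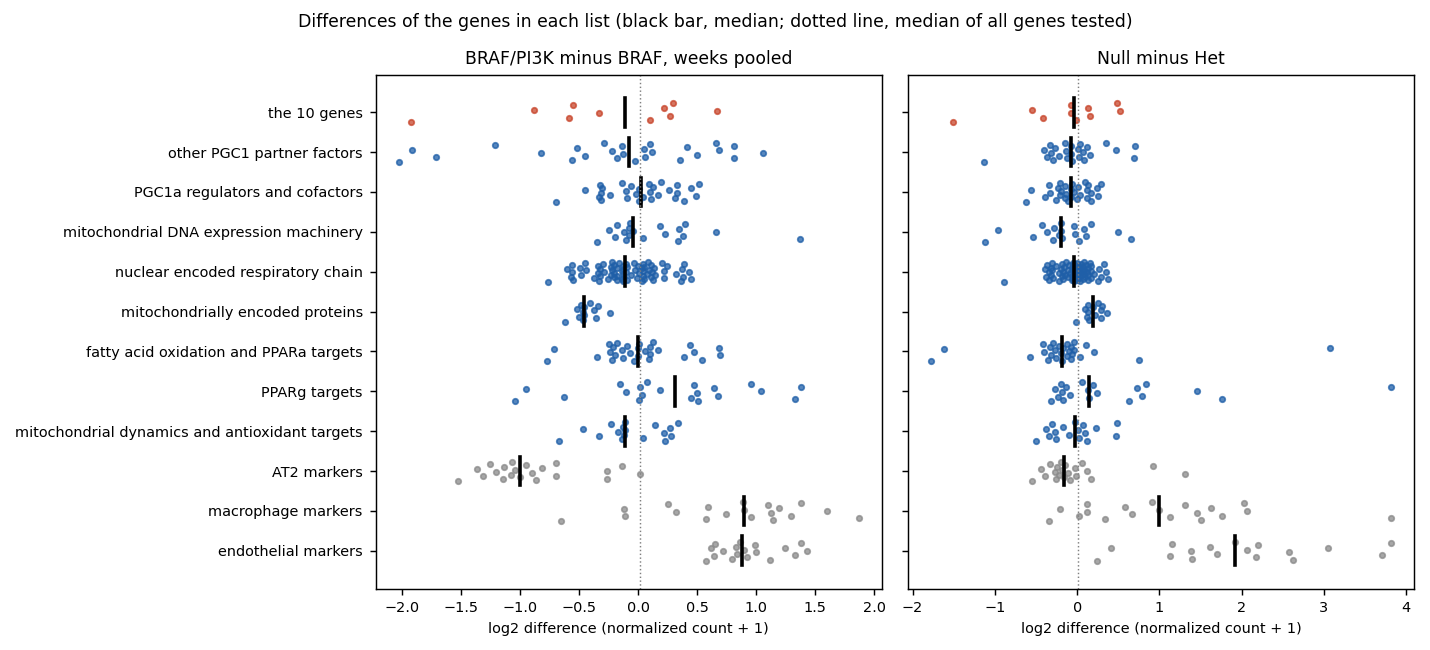
Log2 differences of normalized count + 1 for each tested gene (points) of the 10 members and 8 pathway lists, BRAF/PI3K minus BRAF over all weeks on the left and Null minus Het on the right; the marked bar is the list's median. The 13 mitochondrially encoded mRNAs have a median of -0.46 on the left and 0.19 on the right, and the 74 nuclear-encoded respiratory chain genes have medians of -0.11 and -0.03.

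Between Null and Het, no nuclear-encoded respiratory chain gene passed the adjusted threshold, and the list was not tested as a set against all genes. For this comparison the study reports lower mRNA levels of oxidative phosphorylation genes, from gene set enrichment. Of the 74 genes, 31 were higher and 43 lower in Null (58.1% lower, against 48.9% of all genes). Their median was -0.03, against 0.01 over all genes, and 0 had an unadjusted limma p under 0.05, against 3.83% of all genes. The adjusted p was 0.998 for each gene named from the lists in this comparison except Fabp4 and Acsl1. The smallest p values were those of 2 complex I genes, Ndufb4 (-0.89, SE 0.46) and Ndufa9 (-0.38, SE 0.23). Of the 13 mitochondrially encoded mRNAs 12 were higher (median 0.19), led by mt-Co2 (0.29, SE 0.24) and mt-Atp8 (0.30, SE 0.25). With endothelial marker levels as a covariate the medians of these lists were 0.54 and -0.74, so neither direction held under that setting.

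The mitochondrial DNA machinery had 6 genes higher and 13 lower of 19 (median -0.19). Tfb1m, a mitochondrial rRNA methyltransferase, stood at -1.12 (SE 0.54). Top1mt, the mitochondrial topoisomerase, stood at -0.97 (SE 0.54) and, with endothelial marker levels as a covariate, at -2.37. With single libraries left out the median ran from -0.29 to -0.041, Tfb1m from -1.38 to -0.70 and Top1mt from -1.20 to -0.73. Fatty acid oxidation genes were mostly lower, 23 of 28 (median -0.18), and 1 was higher and 1 lower at an unadjusted limma p under 0.05, Acaa1b, a peroxisomal thiolase (3.07, SE 1.04), and Pdk4, a kinase that restrains pyruvate dehydrogenase (-1.78, SE 0.76). Of all genes, 2.66% were higher and 1.17% lower at that threshold. Pdk4 differed by -1.15 without Null replicate 4, -2.75 without Null replicate 2 and -0.72 with endothelial marker levels as a covariate. Of 17 dynamics and antioxidant genes 8 were higher and 9 lower (median -0.02), with the fission gene Dnm1l at -0.34 (SE 0.21) and the fusion gene Opa1 at -0.31 (SE 0.21). With endothelial marker levels as a covariate the medians were 0.027, 0.034 and 0.25, so the median of each list was above 0 under that setting.

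Of 20 PPARγ targets 12 were higher in Null (median 0.14), 3 of them at an unadjusted p under 0.05, against 2.66% of all genes in that direction. Fabp4, a lipid carrier of fat cells, macrophages and capillary endothelium, was higher by 3.82 (SE 0.80, limma adjusted p = 0.338), and Acsl1, an acyl-CoA synthetase, by 0.84 (SE 0.26, limma adjusted p = 0.840). Fabp4 is also on the macrophage and endothelial marker lists, of which 17 of 19 and 17 of 17 tested genes were higher in Null (medians 0.99 and 1.92). With macrophage or endothelial marker levels, which include Fabp4 itself, as a covariate the Fabp4 difference was 3.20 or 5.34, and that of Acsl1 was 0.86 or 0.33. Among other partner factors 11 were higher and 14 lower of 25 (median -0.08), with Rxra, the obligate partner of the PPAR receptors, at 0.70 (SE 0.27). Among regulators and cofactors 11 were higher and 19 lower of 30 (median -0.08), with the acetyltransferase Crebbp at -0.62 (SE 0.22) and the corepressor Nrip1 at -0.56 (SE 0.30). These medians also changed sign, to -0.075 for the PPARγ targets with macrophage marker levels as a covariate and to 0.072 and 0.11 for partners and regulators with endothelial marker levels.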

How the data were processed

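RNA of sorted tdTomato-positive lung tumor cells was measured in 23 libraries. Per the labels and the study's methods, the authors sequenced single-end reads, estimated gene counts with Salmon on mouse (GRCm38) transcripts and normalized them with DESeq2 on a Galaxy server, both at default settings. Versions and the annotation release are not given in the sources used here. The deposited tables hold these normalized counts as a signal per gene and library, not whole reads, so no count model was used. The authors' own comparison tables (DESeq2 fold changes, standard errors, Wald statistics and p-values) were not used.

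Groups came from the sample titles. Per the study's methods, individual animals and tumors were independent replicates; the labels do not name the animal behind each library. Values were tested as log2(normalized count + 1) with limma 3.58.1 (R 4.3.3, trend, two-sided), on genes with a mean of at least 10, with Benjamini-Hochberg adjustment over all genes tested and a threshold of 0.05. All 10 members passed that filter in both tables, among 17558 and 17424 genes. Comparisons by week used a mean for each genotype and week with a shared spread. Exact permutation tests of library labels were run for the 10 members over all weeks, at 6 weeks and between Null and Het, 30 tests in all (Python 3.11.15, scipy 1.17.1). Counts per kb used the longest coding transcript in GENCODE (GRCm38). The limma fits were tested on simulated data.

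The members and lists were chosen with earlier results of these data known. Named genes were the 10 members, the 5 genes most correlated with Ppargc1a in each table, the 2 genes with the smallest p in each pathway list for the pooled and the Null against Het comparison, and Nr5a2 and Nkx2-1. Alternatives were a pseudocount of 4, a mean of at least 40, all genes, quantile normalization, marker covariates (the mean log2 value of the list), a term for week, sex or replicate number, and leaving out single libraries or both 12-week BRAF/PI3K libraries. Replicate numbers did not pair the samples (correlations of deviations -0.47 to 0.21).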

Additional observations from a re-analysis of the deposited data

Results flagged for a closer look

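Ppargc1a in the fifth Het replicate stood far from its group, at a normalized count of 561 against 75.8 to 199.5 in the other 4 Het libraries. Of 30 pairs of a member and a group looked at, this was the single case, and chance alone gives about 1 in 20. Esrra moved in opposite directions at 2 and 12 weeks: at 2 weeks the BRAF library held 201 and the BRAF/PI3K libraries 1.68 and 12.5, and at 12 weeks the BRAF libraries held 55.6 and 3.09 and the BRAF/PI3K libraries 146 and 56.7. This difference between the weeks was not tested, and it was the single such case among the 30 looked at.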

How the results depend on the processing

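Of 1353 values of 67 tested results under alternative settings, 1308 kept their direction and their side of the threshold, 45 turned direction and 0 passed the threshold. The pooled Ppargc1a difference was -2.10 to -1.68 with single libraries left out and -1.95 to -1.76 otherwise, and the lowest adjusted p was 0.155; between Null and Het these were -1.83 to -1.11, -3.06 to -1.11 and 0.606. With the replicate block Ppargc1a was -1.77 in the pooled comparison and -1.11 between Null and Het, with no call gained or lost among the members.
In the pooled comparison the direction turned for Ppara with sex (-0.028) or macrophage markers (-0.044), Tfam with macrophage markers (0.042), Esrra (-0.28) and Nr5a2 (-0.068) without both 12-week BRAF/PI3K libraries, and Nkx2-1 with endothelial markers (0.14). Between Null and Het it turned with quantile normalization for Esrra (-0.023), Esrrg (-0.028), Gabpa (0.027) and Nr5a2 (-0.079), with the replicate block for Ppara (0.033), with macrophage markers for Esrra (-0.49), Gabpa (0.17), Ppara (0.16) and Nr5a2 (-0.68), and with endothelial markers for Esrrg (-0.029), Gabpa (0.92), Ppara (0.36), Pparg (-0.52), mt-Co2 (-0.31), mt-Atp8 (-0.56), Opa1 (0.14) and Nr5a2 (-1.04). Leaving out single libraries turned Esrra (-0.25 to 0.88), Nrf1 (-0.040 to 0.20) and Ppara (-0.046 to 0.73) in the pooled comparison, Ppargc1a at 12 weeks (-2.31 to 0.13) and in the interaction (-0.33 to 2.11), and Esrra (-0.33 to 0.43), Esrrg (-0.11 to 0.29), Nrf1 (-0.13 to 0.012), Gabpa (-0.14 to 0.10), Ppara (-0.38 to 0.50) and Nr5a2 (-0.17 to 0.46) between Null and Het. The cause was not tested.
Genes past the adjusted threshold numbered 4 in the pooled comparison, 7 with a pseudocount of 4 or quantile normalization and 3 to 9 with single libraries left out. At 2 weeks there were 3, against 0 with a pseudocount of 4, sex or the replicate block, 107 over all genes and 0 to 268 with single libraries left out (268 without the first 6-week BRAF/PI3K replicate). At 6 weeks there were 4, against 7 with a pseudocount of 4, 1 over all genes or with sex, 0 with the block and 1 to 12. At 12 weeks there were 2, against 4 with a pseudocount of 4 or quantile normalization, 16 over all genes, 0 with the block and 2 to 4. For 6 against 2 weeks there were 7, against 2 with a pseudocount of 4, quantile normalization or sex, 3 at a mean of 40, 87 over all genes, 0 with the block and 0 to 106 (106 without the first 6-week BRAF/PI3K replicate). For 12 against 6 weeks there were 2, against 0 with a pseudocount of 4 or the block, 7 over all genes, 1 with sex and 0 to 2. The interaction had 0, against 2 over all genes or with quantile normalization and 0 to 1. Null against Het had 0 throughout. With endothelial markers the median of the mitochondrially encoded genes was -0.11 in the pooled comparison and -0.74 between Null and Het, where that of the nuclear-encoded respiratory chain was 0.54. The single 2-week BRAF library could not be left out of the 2-week and the 6 against 2 week comparisons. Depth in reads is unknown, and low genes such as Esrra and Ppargc1b are the least precise.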
